A study of Mus musculus with 6 samples.

Results

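The expression of 10 genes of adult neurogenesis and cell proliferation was examined in the mouse hippocampus, namely *Nes*, *Eomes*, *Mki67*, *Top2a*, *Rb1*, *Neurod1*, *Sox4*, *Sox11*, *Igfbpl1* and *Dcx*. These genes were chosen by symbol for their roles in progenitors, dividing cells and immature neurons, and they are 10 of the 25239 genes counted. The choice was made with earlier results of these data known, so their counts are description and no separate test. Hippocampal RNA was sequenced in 1 library for each of 3 Ube3a m-/p+ males and 3 WT males (Ube3a m+/p+), all C57BL/6 and between 6 and 8 weeks old. The Ube3a m-/p+ mouse models Angelman syndrome. It carries a mutant maternal copy of *Ube3a*, which encodes a ubiquitin ligase, and an intact paternal copy, and mature neurons normally silence the paternal copy while other cells use both. Neither the labels nor the methods describe the mutant allele further, and neither says whether the mice were littermates. Of the 10 genes, none was called differentially expressed between the genotypes. *Sox11*, *Neurod1*, *Dcx* and *Rb1* had lower and *Nes* had higher expression in Ube3a m-/p+ mice at an unadjusted p below 0.05, which 24.6% of all tested genes passed, while the proliferation genes *Mki67* and *Top2a* had intervals that spanned no difference. Once libraries were corrected for the length and GC content of transcripts, *Dcx* and *Rb1* stood at log2 fold changes of -0.19 and -0.17, with intervals that also spanned 0.

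In the adult dentate gyrus, radial glia-like stem cells produce dividing intermediate progenitors, and these become neuroblasts and immature granule neurons that join the existing circuit. *Nes* marks the stem cells, *Eomes* the intermediate progenitors, *Mki67* and *Top2a* cells in division, and *Neurod1*, *Sox4*, *Sox11*, *Igfbpl1* and *Dcx* the neuroblasts and immature neurons. The product of *Rb1* holds back entry into the cell cycle by binding E2F transcription factors. Several of these genes are not restricted to the lineage, since *Nes* is also expressed in blood vessels, *Sox4* and *Sox11* in other young cells, and *Rb1* in nearly all cells. In whole tissue, fewer cells of a type and less RNA per cell cannot be told apart.

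Each library held between 7293272 and 11314409 counts on genes, with the WT libraries the smaller ones (up to 8675252). *Ube3a* itself had 104, 141 and 151 CPM (counts scaled to the total of gene counts in the library) in WT mice 1, 2 and 3 and 96.8, 82.9 and 80.6 CPM in Ube3a m-/p+ mice 1, 2 and 3, a log2 fold change of -0.58 with a 95% interval of -0.85 to -0.32 (adjusted p = 0.0363, edgeR). Exons of *Ube3a* overlap those of *Snhg14* over 1803 bp on the opposite strand, and whether the counting used strands is not given. The mice numbered 1 stood apart from the others of their genotype. Between the counts of 2 libraries, the chi-square per degree of freedom was lowest for the 2 mice numbered 1 (3.78), followed by WT mice 2 and 3 (3.95). On the first principal component (42.4% of the variance) WT mouse 1 lay at -2.32 and Ube3a m-/p+ mouse 1 at -1.30, between the other WT mice (20.0 and 29.7) and the other Ube3a m-/p+ mice (-20.2 and -25.9). The libraries also differed in how expression followed the GC content of the transcript. Spearman's rho of GC content with a library's deviation from the average library, taken over genes that are not independent replicates, was -0.505 and -0.571 in WT mice 2 and 3, 0.525 and 0.53 in the Ube3a m-/p+ mice with these numbers, and 0.0453 and 0.0585 in the mice numbered 1. Results below are therefore given also after each library was corrected for GC content and transcript length, and without both mice numbered 1.

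All 10 genes passed the filter on low counts, and 14445 genes in all were tested by edgeR's quasi-likelihood test. Genes were called when the adjusted p was below 0.05 and the fold change exceeded 1.2. This was reached by 0 of the 10 genes and by 290 of all tested genes (2.01%). DESeq2 gave an adjusted p for 6 of the 10 genes, leaving out *Eomes*, *Mki67*, *Top2a* and *Igfbpl1*, and called 1 of them, *Sox11* (adjusted p = 0.0234), against 934 of 10689 genes in all (8.74%). Of the 10 genes, 5 had an unadjusted p below 0.05, as did 24.6% of all tested genes. Lower in Ube3a m-/p+ mice at this threshold were 4 of the 10 genes, against 12.4% of all tested genes, and higher was 1 of the 10, against 12.2%. The CPM of the genotypes did not overlap for 2 genes that were lower (14.2% of all tested genes) and 1 gene that was higher (10.8%). The median log2 fold change was -0.0865 over the 10 genes and 0.0025 over all tested genes.

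**Figure D1:**
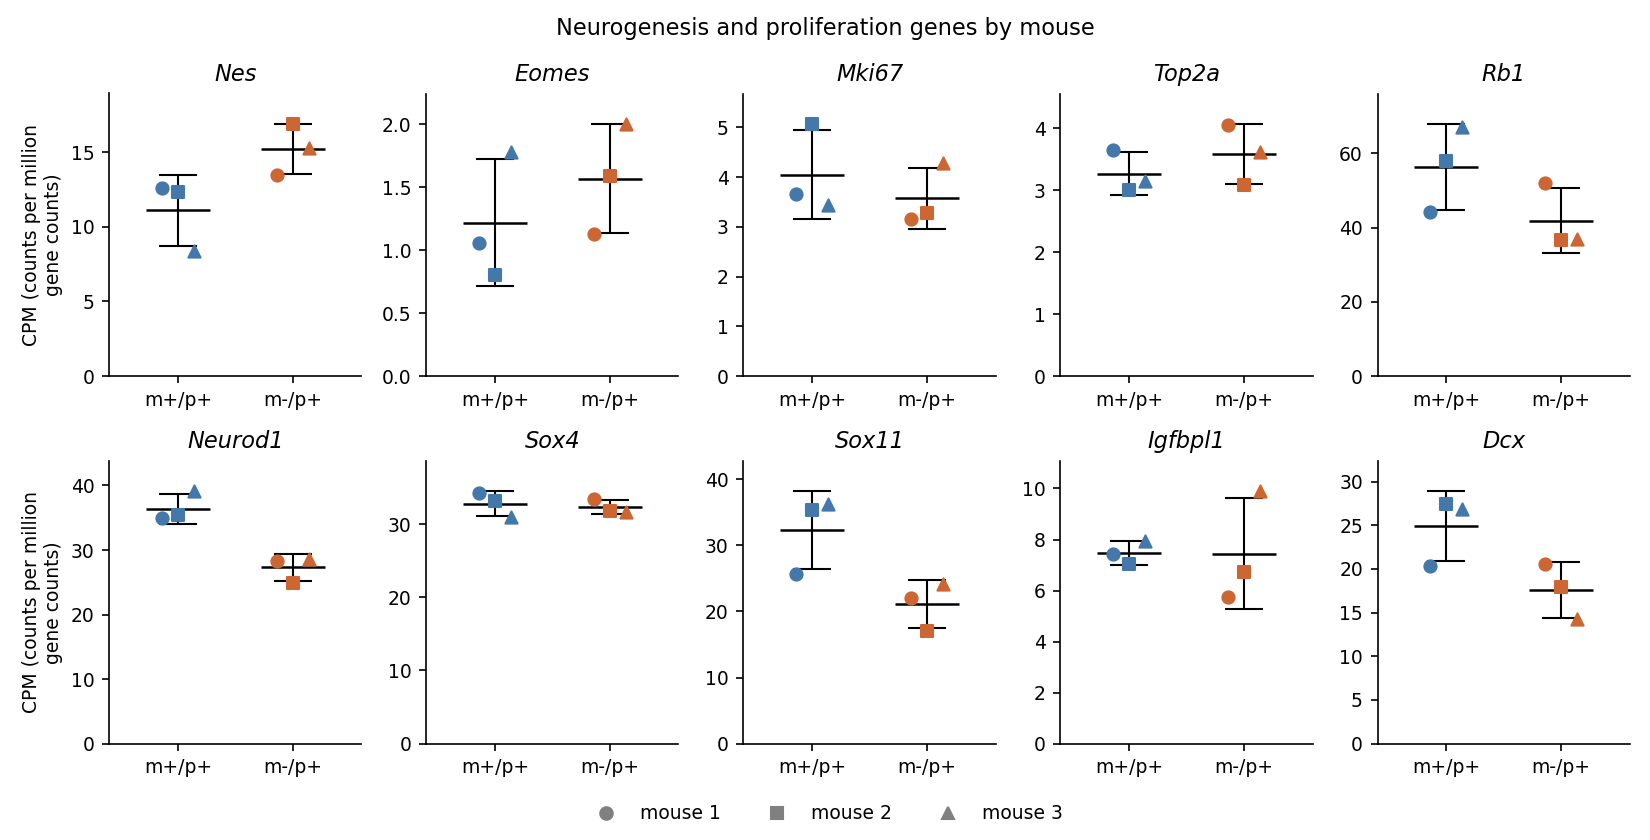
Expression of the 10 genes in each mouse, in CPM on the vertical axis from 0, with WT (m+/p+) mice in blue and Ube3a m-/p+ mice in orange; the symbol shape gives the mouse number, and black lines show the mean and SD of 3 mice. The genotypes do not overlap for *Neurod1*, *Sox11* and *Nes*, and for *Rb1* and *Dcx* only the mice numbered 1 overlap.

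Among the genes of immature neurons, *Sox11* had the largest difference. *Sox11* encodes an SRY-related transcription factor that immature neurons need to differentiate, and it is a gene of 1 exon on chromosome 12 (27334264 to 27342574, minus strand, GRCm38). Its expression was 25.6, 35.3 and 36.2 CPM in WT mice 1, 2 and 3 and 22.1, 17.1 and 24.2 CPM in Ube3a m-/p+ mice 1, 2 and 3. Every Ube3a m-/p+ mouse lay below every WT mouse, although WT mouse 1 was only a little above Ube3a m-/p+ mouse 3. The means were 32.3 ± 5.89 and 21.2 ± 3.64 CPM (SD, n = 3 each), a log2 fold change of -0.59 (95% interval -0.92 to -0.27, adjusted p = 0.0533, edgeR). The exact permutation test gave a two-sided p of 0.1, the smallest that 3 mice against 3 allow.

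*Neurod1* encodes a basic helix-loop-helix factor required for the survival and maturation of newborn granule neurons, and it stays on in mature granule cells. It has 2 exons on chromosome 2 (79452521 to 79456751, minus strand). Expression was 34.9, 35.4 and 39.1 CPM in WT mice 1, 2 and 3 and 28.3, 24.9 and 28.6 CPM in Ube3a m-/p+ mice 1, 2 and 3. The genotypes were separated by more than the spread within either of them. The log2 fold change was -0.40 (95% interval -0.64 to -0.17, adjusted p = 0.0605, edgeR; exact permutation p = 0.1), with means of 36.4 ± 2.30 and 27.3 ± 2.04 CPM (SD, n = 3 each). An exon stretch of 201 bp is shared with *Cerkl* on the same strand, where reads of the 2 genes can be ambiguous.

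*Dcx* encodes doublecortin, a microtubule-associated protein of migrating neuroblasts and the usual marker of young granule neurons. It lies on the X chromosome (143855842 to 143933311, minus strand), with 7 exons in its longest transcript. Its expression was 20.3, 27.4 and 26.9 CPM in WT mice 1, 2 and 3 and 20.6, 17.9 and 14.3 CPM in Ube3a m-/p+ mice 1, 2 and 3. The mice numbered 1 had nearly equal values, and the other mice of the 2 genotypes were well apart. The log2 fold change was -0.48 (95% interval -0.81 to -0.16, adjusted p = 0.0807, edgeR; exact permutation p = 0.2).

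The other genes of this stage, *Sox4* and *Igfbpl1*, had differences close to 0. *Sox4*, the close relative of *Sox11* with 1 exon on chromosome 13 (28948919 to 28953713), had 34.3, 33.1 and 31.0 CPM in WT mice 1, 2 and 3 and 33.4, 31.8 and 31.7 CPM in Ube3a m-/p+ mice 1, 2 and 3. These 6 values overlapped fully, and the log2 fold change was -0.00525 with a narrow 95% interval of -0.23 to 0.22 (adjusted p = 0.981, edgeR). Its direction turned with the scaling, since upper-quartile factors gave 0.01. Over 2616 bp its exon is covered by *Gm26735* on the opposite strand, which is not among the genes counted. *Igfbpl1*, a secreted protein related to the IGF-binding proteins and a marker of neuroblasts (chromosome 4, 45809468 to 45826923), had 7.42, 7.03 and 7.95 CPM in WT mice 1, 2 and 3. In Ube3a m-/p+ mice 1, 2 and 3 it had 5.75, 6.72 and 9.89 CPM, which is below all WT mice in mice 1 and 2 and above them in mouse 3. Its log2 fold change of 0.0235 (95% interval -0.44 to 0.49, adjusted p = 0.959, edgeR) became -0.13 after the correction for GC content and length. The difference between *Sox11* and *Sox4* in their response was not tested.

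The sequences before the transcription start are shown for the 3 genes of immature neurons that were lower in Ube3a m-/p+ mice at an unadjusted p below 0.05, with matches to a CCAAT box (CCAAT), the cell cycle homology region (CHR, TTTGAA) and an E-box (CAGCTG or CAGATG) in capitals, on either strand. They come from RefSeq (GRCm38.p6) and leave out any base inside the gene as GENCODE M21 annotates it. RefSeq entries matched 8 of the 10 genes, with none for *Rb1* and *Igfbpl1*. The stretches lie at chr12:27342719-27342968, chr2:79456752-79456886 and chrX:143933312-143933469, all read on the minus strand.
Sox11: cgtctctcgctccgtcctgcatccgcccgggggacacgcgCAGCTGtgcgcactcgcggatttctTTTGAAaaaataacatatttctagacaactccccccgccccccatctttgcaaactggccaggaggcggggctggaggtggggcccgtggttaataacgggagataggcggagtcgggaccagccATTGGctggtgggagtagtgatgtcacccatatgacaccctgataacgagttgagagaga
Neurod1: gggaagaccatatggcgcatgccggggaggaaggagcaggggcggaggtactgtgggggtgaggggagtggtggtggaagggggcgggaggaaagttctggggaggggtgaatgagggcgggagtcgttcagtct
Dcx: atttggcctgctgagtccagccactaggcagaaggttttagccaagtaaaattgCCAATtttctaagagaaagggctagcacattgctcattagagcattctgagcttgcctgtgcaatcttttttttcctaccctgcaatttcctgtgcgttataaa
Within the 250 bases before the start, *Sox11* held 1 CCAAT box, 1 CHR and 1 E-box (CAGCTG), *Dcx* held 1 CCAAT box, and *Neurod1* held none of the motifs searched. So these 3 genes had no motif of the search in common. Of the 32851 promoters in the table, 33.8% held a CCAAT box, 16% a CHR and 25.5% either E-box. The *Sox11* and *Neurod1* stretches were GC-rich, at 58% and 65.2%, and that of *Dcx* was not, at 42.4%, in contrast to the low GC content of all 3 transcripts.

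*Nes* differed in the opposite direction. It encodes nestin, an intermediate filament of neural stem cells that endothelial cells and pericytes can also make, and has 4 exons on chromosome 3 (87971078 to 87980451, plus strand). Expression was 12.6, 12.3 and 8.36 CPM in WT mice 1, 2 and 3 and 13.5, 16.9 and 15.3 CPM in Ube3a m-/p+ mice 1, 2 and 3. All Ube3a m-/p+ mice lay above the WT mice, by a small margin for mouse 1, and WT mouse 3 was the lowest of all. The means were 11.1 ± 2.37 and 15.2 ± 1.68 CPM (SD, n = 3 each), a log2 fold change of 0.47 (95% interval 0.10 to 0.84, adjusted p = 0.117, edgeR; exact permutation p = 0.1). Among vascular markers, *Cldn5* of endothelial tight junctions had 29.4 ± 4.55 CPM in WT mice and 40.0 ± 7.03 CPM in Ube3a m-/p+ mice (SD, n = 3 each; adjusted p = 0.0751, edgeR). With a GC content of 60.5%, *Cldn5* stood at a log2 fold change of 0.46, and at 0.16 after the correction for GC content and length. In contrast, *Rgs5* of pericytes fell from 127 ± 9.92 to 87.9 ± 16.0 CPM (SD, n = 3 each; adjusted p = 0.0387, edgeR). The summed level of the 10 endothelial markers was 350 to 367 CPM in WT mice and 298 to 333 CPM in Ube3a m-/p+ mice, and that of the 8 pericyte and mural markers was 245 to 270 and 211 to 230 CPM. *Rgs5* made up much of the latter sum. Of the endothelial markers, 6 had negative and 4 positive log2 fold changes (median -0.188, and -0.142 after the correction). The pericyte and mural markers had 4 of each (median -0.0191, and -0.0563 after the correction). The part of these vascular cells in the *Nes* result was not tested.

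*Eomes*, which encodes the T-box factor Tbr2 of intermediate progenitors, was the least abundant of the 10 genes, with 78 counts in the 6 libraries (chromosome 9, 118478212 to 118486132). It had 1.06, 0.807 and 1.78 CPM in WT mice 1, 2 and 3 and 1.13, 1.59 and 2.00 CPM in Ube3a m-/p+ mice 1, 2 and 3, and the genotypes overlapped. The exact Poisson interval of the lowest library, on 7 counts, ran from 0.324 to 1.66 CPM and that of the highest, on 21 counts, from 1.24 to 3.05 CPM; such intervals cover counting error only. A log2 fold change of 0.42 had a 95% interval of -0.47 to 1.31 (adjusted p = 0.563, edgeR), which leaves room for a change in either direction.

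*Mki67*, which encodes the Ki-67 antigen of cycling cells (chromosome 7, 135689784 to 135716361, minus strand, 14 exons), had 3.65, 5.07 and 3.43 CPM in WT mice 1, 2 and 3. In Ube3a m-/p+ mice 1, 2 and 3 it had 3.16, 3.27 and 4.28 CPM. The log2 fold change was -0.17 (95% interval -0.73 to 0.40, adjusted p = 0.734, edgeR), and its sign rested on WT mouse 2, without which it was 0.03. *Top2a*, the topoisomerase that untangles chromosomes in S phase and mitosis (chromosome 11, 98992943 to 99024189, minus strand, 36 exons), had 3.65, 3.00 and 3.15 CPM in WT mice 1, 2 and 3 and 4.06, 3.09 and 3.61 CPM in Ube3a m-/p+ mice 1, 2 and 3. Its log2 fold change of 0.14 had a 95% interval of -0.41 to 0.70 (adjusted p = 0.771, edgeR). Each library held 23 to 45 counts of these 2 genes, and the intervals leave room for a change in either direction.

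The promoters of *Mki67* (chr7:135716380-135716629) and *Top2a* (chr11:99024190-99024439) are printed since they hold matches to both CCAAT and CHR, elements known from G2 and M phase genes. They are read on the minus strand with CCAAT boxes and CHR matches in capitals as above.
Mki67: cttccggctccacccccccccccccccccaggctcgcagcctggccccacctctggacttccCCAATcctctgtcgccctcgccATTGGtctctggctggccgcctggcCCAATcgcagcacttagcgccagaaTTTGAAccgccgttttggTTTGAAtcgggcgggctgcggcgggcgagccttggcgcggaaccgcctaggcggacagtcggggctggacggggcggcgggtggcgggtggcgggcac
Top2a: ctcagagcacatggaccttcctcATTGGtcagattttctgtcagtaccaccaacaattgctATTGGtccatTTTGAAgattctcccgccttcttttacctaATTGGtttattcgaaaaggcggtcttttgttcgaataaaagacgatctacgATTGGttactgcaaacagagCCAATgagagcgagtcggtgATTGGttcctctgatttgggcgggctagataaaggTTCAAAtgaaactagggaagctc
The *Mki67* stretch held 3 CCAAT boxes and 2 CHR matches, and that of *Top2a* held 6 CCAAT boxes and 2 CHR matches. Such matches are common, in 33.8% and 16% of all promoters, and *Sox11* also held both. The spacing between them was not tested. An E2F motif (TTTCCCGC, TTTGGCGC, TTTGCCGC or TTTCGCGC, either strand) was found in none of the 8 genes with an entry and in 1.86% of all promoters. This says only that these letters were not in this window.

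*Rb1* (chromosome 14, 73183673 to 73325822, minus strand, 27 exons) had 44.2, 57.9 and 67.2 CPM in WT mice 1, 2 and 3 and 52.0, 36.8 and 36.9 CPM in Ube3a m-/p+ mice 1, 2 and 3. The order of the mice numbered 1 was the opposite of that of the other mice. The means were 56.4 ± 11.6 and 41.9 ± 8.74 CPM (SD, n = 3 each), a log2 fold change of -0.41 (95% interval -0.76 to -0.07, adjusted p = 0.138, edgeR; exact permutation p = 0.2). Its exons overlap those of *Rcbtb2* over 488 bp and of *Lpar6* over 408 bp on the opposite strand, and whether the counting used strands is not given in the sources used here.

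**Figure D2:**
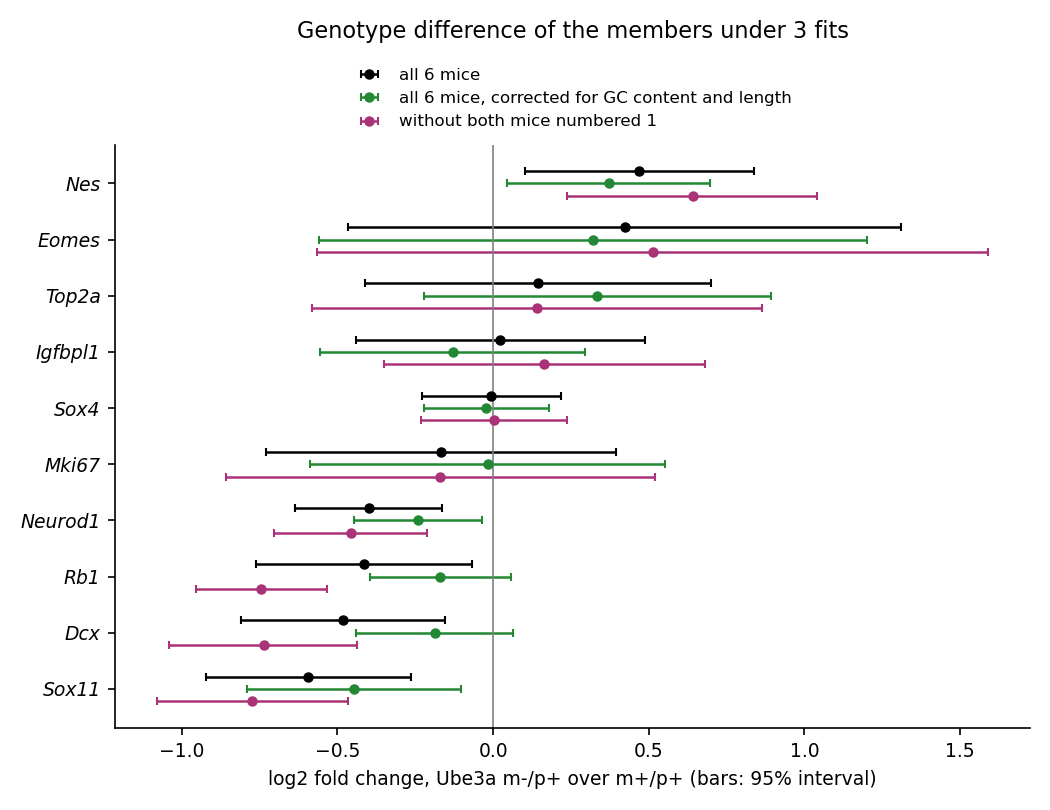
Log2 fold change of each gene between Ube3a m-/p+ and WT mice on the horizontal axis, with bars for the 95% interval, in the fit of all 6 mice (black), after the correction for GC content and length (green) and without both mice numbered 1 (purple). The intervals of *Sox11*, *Neurod1* and *Nes* stay on one side of 0 in all 3 fits, and those of *Dcx* and *Rb1* reach 0 after the correction. The third fit leaves out mice chosen for lying between the genotypes. With certain other single mice left out, not drawn here, the *Nes* interval spans 0.

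GC content moved with these differences. The 4 genes that were lower at an unadjusted p below 0.05 had transcripts with a GC content of 40.6% (*Dcx*), 41.2% (*Rb1*), 43.6% (*Neurod1*) and 46.5% (*Sox11*), and *Nes* had 55.5%. Of the genes with smaller differences, *Mki67* had 46.6%, *Sox4* 51.1% and *Igfbpl1* 55.7%. When the 14328 tested genes with an annotated transcript were split into 5 equal bins by GC content, the median log2 fold change went from -0.244 in the lowest bin to 0.222 in the highest. In the lowest bin, which holds *Dcx*, *Rb1*, *Neurod1* and *Top2a*, 38.7% of genes were lower at an unadjusted p below 0.05, and in the next bin, with *Sox11* and *Mki67*, 15.3% were. In the bin of *Nes* and *Eomes* 15.4% were higher. *Top2a* had a positive log2 fold change in a bin with a median of -0.244, and *Igfbpl1* lay near 0 in a bin with a median of 0.222.

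Once GC content and length had been corrected for, the log2 fold change of *Sox11* was -0.45 (adjusted p = 0.209, edgeR), that of *Neurod1* -0.24 (adjusted p = 0.254, edgeR) and that of *Nes* 0.37 (adjusted p = 0.270, edgeR). These 3 of the 10 genes had an unadjusted p below 0.05, against 14.6% of all genes in that fit, and 0 of the 10 were called, against 0.537%. *Dcx* moved to -0.19 (95% interval -0.44 to 0.06) and *Rb1* to -0.17 (95% interval -0.40 to 0.06), each less than 0.5 times its uncorrected value. *Ube3a*, with a GC content of 36.9%, moved to -0.19 in the same fit (adjusted p = 0.254, edgeR). *Top2a* stood at 0.34 (95% interval -0.22 to 0.89) and *Mki67* moved to -0.02 (95% interval -0.59 to 0.55), neither with an unadjusted p below 0.05.

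**Figure D3:**
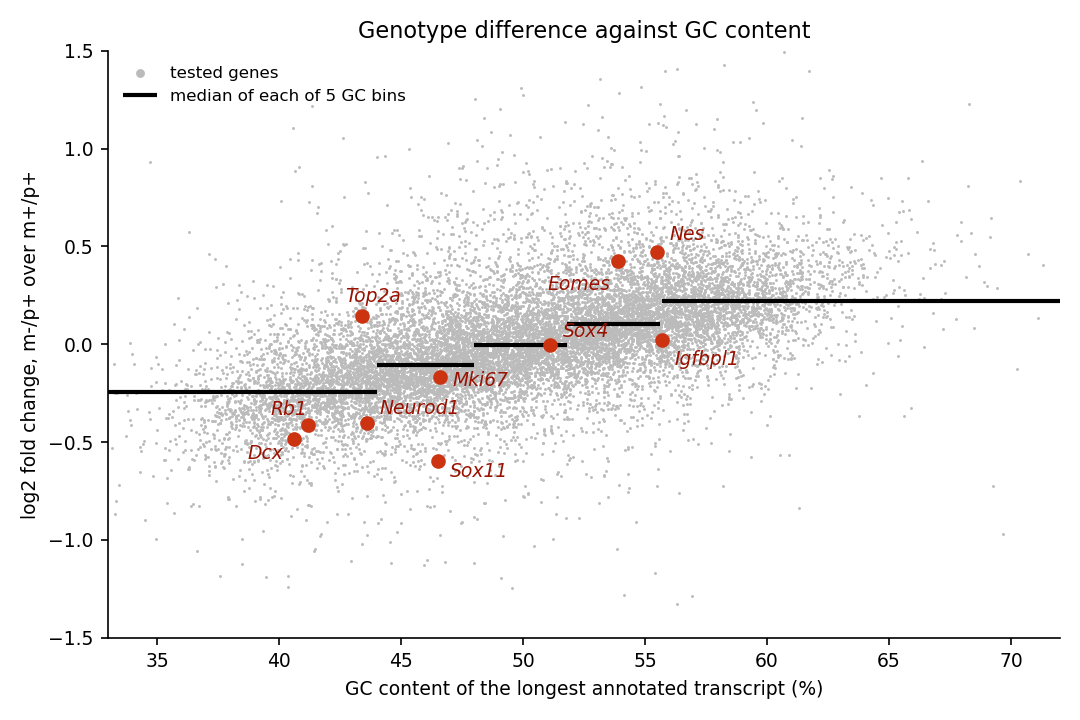
Log2 fold change between Ube3a m-/p+ and WT mice against GC content (%) of a gene's longest transcript, with tested genes in grey, the median of each of 5 GC bins as a black line and the 10 genes in red. The medians climb from -0.244 to 0.222, and *Sox11* lies further below the median of its bin than *Dcx*, *Rb1* or *Neurod1*; 9 genes lie beyond each axis and are not drawn.

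Both mice numbered 1 were left out because they lay between the genotypes in these same data. A larger number called without them is therefore no separate support for a difference. Without these 2 mice, 5 of the 10 genes were called, against 28.3% of all tested genes in that fit. These were *Rb1* (-0.74, adjusted p = 2.66e-05), *Dcx* (-0.74, adjusted p = 0.0007), *Sox11* (-0.77, adjusted p = 0.000792), *Neurod1* (-0.46, adjusted p = 0.00595) and *Nes* (0.64, adjusted p = 0.016), all by edgeR with 2 mice per genotype. Without only WT mouse 1, or without only Ube3a m-/p+ mouse 1, 4 genes were called in each case (17.6% and 12.5% of all genes), while edgeR called 0 when any 1 of the other 4 mice was left out (3 or 4 at an unadjusted p below 0.05). The number called therefore depended on the mice numbered 1, whose values for *Dcx* and *Rb1* lay among those of the other genotype.

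Per kilobase of merged exons, the order of levels in WT mice started with *Neurod1* at 13.4 ± 0.841 CPM per kilobase (SD, n = 3) and *Rb1* at 9.38 ± 1.92, which did not overlap. *Sox4* followed at 6.84 ± 0.347 and *Sox11* at 3.89 ± 0.709. *Igfbpl1* (2.30 ± 0.142), *Dcx* (1.97 ± 0.316) and *Nes* (1.73 ± 0.370) overlapped with their neighbours in this order. The lowest levels were those of *Mki67* (0.403 ± 0.0886), *Top2a* (0.363 ± 0.0379) and *Eomes* (0.293 ± 0.122), which could not be ordered beyond their spread. In Ube3a m-/p+ mice *Neurod1* was still first, at 9.99 ± 0.749 CPM per kilobase, while *Nes* (2.37 ± 0.262) and *Sox11* (2.55 ± 0.438) came close to each other.

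Genes with the same roles, also chosen with earlier results of these data known, were read off from the same test. The calls given here and for the marker genes rest on several mice, since edgeR called 0 genes in all without WT mouse 2, without WT mouse 3 or without Ube3a m-/p+ mouse 2 (2075 to 2159 at an unadjusted p below 0.05). Of 26 further stem and progenitor genes tested, 1 was called lower and 1 higher (0.990% and 1.02% of all genes). *Fabp7*, a lipid-binding protein of radial glia and astrocytes, rose from 16.9 ± 0.973 to 23.8 ± 1.17 CPM (SD, n = 3 each; adjusted p = 0.0446, edgeR). It stood at a log2 fold change of 0.51 and, with a low GC content of 42.6%, at 0.60 after the correction (adjusted p = 0.0206, edgeR). *Prom1*, the membrane protein prominin of stem and ependymal cells, fell from 22.2 ± 1.86 to 15.1 ± 1.24 CPM (adjusted p = 0.0471, edgeR; 0.0919 after the correction). The RNA-binding protein gene *Msi1* (0.53) and the gene of the helix-loop-helix inhibitor Id4 (-0.23) had the next smallest p in each direction and were not called (adjusted p = 0.0638 and 0.126, edgeR). The median log2 fold change of this list was 0.146, and -0.0302 after the correction.

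Of 51 further cell cycle genes, 37 passed the filter, and the 14 that did not had 16 to 53 counts in all 6 libraries together. None of the 37 was called by edgeR, against 2.01% of all genes, with 3 lower and 2 higher at an unadjusted p below 0.05 (12.4% and 12.2% of all genes). The log2 fold change was negative for 19 and positive for 18. DESeq2 gave an adjusted p for 13 of them and called 0, against 8.74% of all genes. The smallest p among lower genes belonged to *Top2b* (-0.32), the topoisomerase that neurons also express, and *Kif20a* (-0.40), a mitotic kinesin. Among higher genes it belonged to *Bub1b* (0.73), a spindle checkpoint kinase, and to *H2az1* (0.25), a histone variant. Their adjusted p lay between 0.0796 and 0.189 (edgeR). The median log2 fold change of the list was -0.0364.

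Of 36 further genes of immature neurons tested, 1 was called, *Dpysl3*, which encodes a collapsin response mediator protein of growing axons and fell from 72.9 ± 0.720 to 51.5 ± 0.555 CPM (SD, n = 3 each; adjusted p = 0.0362, edgeR). At an unadjusted p below 0.05, 7 were lower and 6 higher (12.4% and 12.2% of all genes), and the median log2 fold change was -0.00435. After the correction, 4 were lower and 1 was higher at this threshold (6.66% and 7.98% of all genes). The guidance ligand gene *Sema3c* (-0.47), the neuronal tubulin gene *Tubb3* (0.34) and the imprinted gene *Nnat* (0.47) were not called, with adjusted p of 0.0513, 0.0640 and 0.0638 (edgeR). *Tubb3* and *Nnat* have GC contents of 57.9% and 58.6%, and after the correction they stood at 0.11 and 0.19.

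Of 32 further genes of the Rb and E2F pathway tested, 0 were called by edgeR, against 2.01% of all genes, with 2 lower and 1 higher at an unadjusted p below 0.05 (12.4% and 12.2% of all genes). DESeq2 gave an adjusted p for 22 of them and called 1, *Tfdp2*, against 8.74% of all genes. *Tfdp2*, a dimerization partner of E2F factors, had 59.4 ± 4.02 CPM in WT mice and 45.1 ± 6.35 CPM in Ube3a m-/p+ mice (SD, n = 3 each; log2 fold change -0.38, adjusted p = 0.0632, edgeR). *Ccnd2*, the D-type cyclin of neural progenitors, stood at -0.22, and the kinase inhibitor gene *Cdkn2d* at 0.33 (adjusted p = 0.166 and 0.169, edgeR). *Lin37*, a subunit of the complex that represses cell cycle genes in resting cells, stood at 0.20 (adjusted p = 0.412, edgeR). The median of the list was -0.0444.

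**Figure D4:**
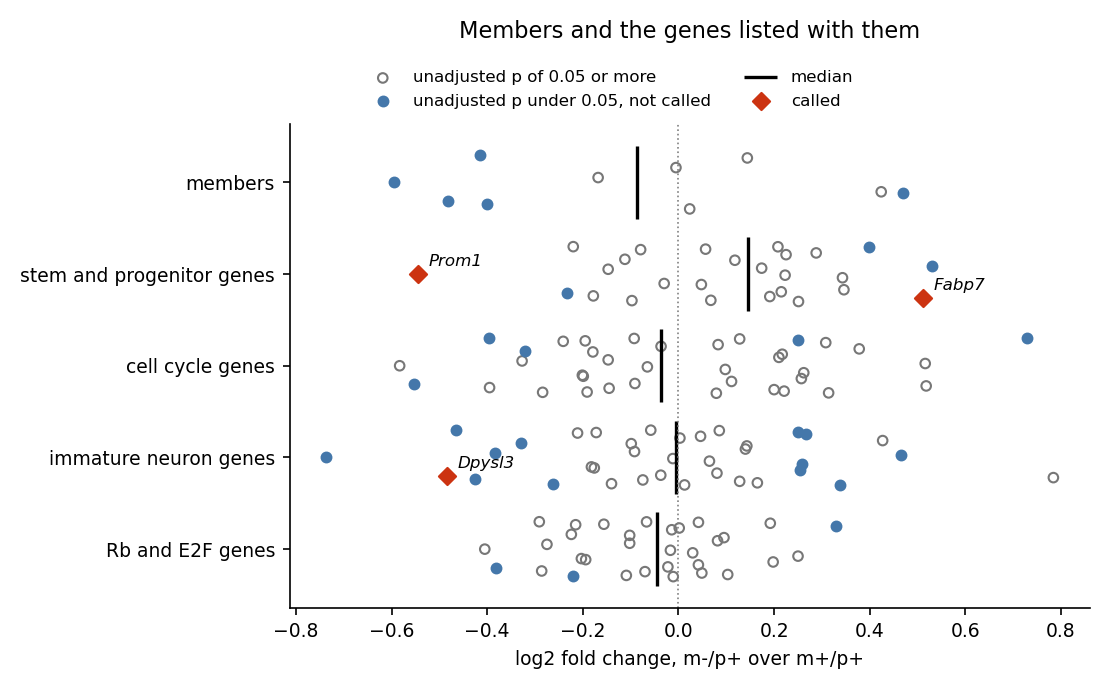
Log2 fold change between Ube3a m-/p+ and WT mice for the tested genes among the 10 genes (members) and in the 4 lists of genes with the same roles, with 1 symbol per gene, spread vertically only for legibility, and a vertical line at each median. The 3 called genes are *Prom1*, *Fabp7* and *Dpysl3*, and the medians lie between -0.0865 and 0.146.

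Marker genes of other cells in the tissue were measured beside these results. *Prox1*, the transcription factor of granule neurons, had 161 ± 6.45 CPM in WT mice and 140 ± 18.2 CPM in Ube3a m-/p+ mice (SD, n = 3 each; adjusted p = 0.251, edgeR). The summed level of 10 markers of mature granule cells was 803 to 810 CPM in WT mice and 739 to 764 CPM in Ube3a m-/p+ mice. Of these 10 markers, 6 had negative and 4 positive log2 fold changes, with a median of -0.0874, and 0.0116 after the correction. Markers of hippocampal neurons summed to 9090 to 9820 and 9340 to 10300 CPM over 9 genes. Of these 9, 4 had negative and 5 positive log2 fold changes, with a median of 0.0351, and -0.0254 after the correction. Of the 10 markers of oligodendrocyte precursors, which also divide in the adult, *Pdgfra* fell from 69.3 ± 3.23 to 50.8 ± 6.69 CPM (SD, n = 3 each; adjusted p = 0.0466, edgeR), and their summed level was 426 to 452 and 429 to 439 CPM. Of these precursor markers, 5 had negative and 5 positive log2 fold changes, with a median of -4.85e-05, and -0.0808 after the correction. The 8 markers of microglia summed to 408 to 445 and 377 to 396 CPM, with *Cx3cr1* at 54.4 ± 1.83 and 50.2 ± 2.75 CPM. The log2 fold change was negative for 4 of them and positive for 4, with a median of -0.0277, and -0.144 after the correction. For the 8 astrocyte markers the sums were 5270 to 5690 and 4700 to 4930 CPM, and most of that difference lay in *Slc1a2*, a glutamate transporter gene named after its values were seen, with 3290 ± 205 and 2600 ± 146 CPM (SD, n = 3 each; adjusted p = 0.0513, edgeR). The median log2 fold change of these 8 was -0.179, and -0.0443 after the correction, with 5 negative and 3 positive. The part of these cells in the results was not tested.

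Neuroblasts of the subventricular zone, which lies near the hippocampus, express *Dlx1*, a gene shared with interneurons, at 27.6 ± 1.71 CPM in WT and 28.8 ± 2.44 CPM in Ube3a m-/p+ mice (SD, n = 3 each; adjusted p = 0.704, edgeR). The 8 markers of these neuroblasts and of interneurons summed to 449 to 491 and 378 to 414 CPM. That sum was mostly made up of *Gad1* (274 ± 9.70 and 235 ± 2.07 CPM) and *Gad2* (155 ± 15.1 and 118 ± 15.4 CPM), the enzymes of GABA synthesis in interneurons. The other 6 markers, all transcription factor genes, had positive log2 fold changes from 0.0254 to 0.71, the last in *Dlx6* (1.62 ± 0.332 and 2.65 ± 0.481 CPM, SD, n = 3 each; adjusted p = 0.198, edgeR), whose genotypes did not overlap. None of the 8 was called, the median was 0.157, and 0.0444 after the correction; *Gad1*, *Gad2* and *Dlx6* were named after their values were seen. The markers of choroid plexus varied widely between mice. *Ttr*, the transthyretin gene of this tissue, had 522, 58.8 and 1990 CPM in WT mice 1, 2 and 3 and 2050, 1440 and 63.0 CPM in Ube3a m-/p+ mice 1, 2 and 3, without an order by genotype. It had the highest level of the 8 choroid plexus and ependymal markers in every mouse. All 8 had positive log2 fold changes, with a median of 0.46, and 0.51 after the correction. Ube3a m-/p+ mice were higher without overlap for 3 of the 8, against 10.8% of all tested genes. *Foxj1* of ciliated cells rose from 7.64 ± 0.625 to 15.1 ± 2.65 CPM (SD, n = 3 each; adjusted p = 0.0361, edgeR), and the 8 choroid plexus and ependymal markers summed to 118 to 2180 and 135 to 2270 CPM. *Col1a1* of the meninges rose from 10.1 ± 1.83 to 16.6 ± 2.34 CPM (SD, n = 3 each; adjusted p = 0.0416, edgeR), with sums over 8 markers of 92.2 to 152 and 95 to 180 CPM. After the correction for GC content, the called markers *Rgs5*, *Pdgfra*, *Foxj1* and *Col1a1* had adjusted p between 0.0519 and 0.0975 (edgeR). No marker of these lists was at 0 counts in all libraries.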

How the data were processed

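Hippocampal RNA of 3 WT and 3 Ube3a m-/p+ male mice was sequenced with 1 library per mouse; the labels name Trizol and the methods a total RNA kit for extraction. The authors deposited raw counts per gene symbol, without normalization or pooling. The submitters' processing notes name STAR 2.7.4a, HTSeq and mm10; the annotation, the settings and the use of strands are not given in the sources used here. Lines that summarise reads on no gene (54.07% to 55.05%), ambiguous reads and reads aligned more than once were left out.

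CPM were computed on total gene counts. Genotypes were compared with edgeR 4.0.16 in R 4.3.3 (filterByExpr, TMM, robust quasi-likelihood test, no factor beside genotype). Tests were two-sided, and p was adjusted by Benjamini-Hochberg over 14445 genes. Fold changes and their 95% intervals come from this fit. The biological coefficient of variation was 0.102. Exact permutation tests used log2(CPM + 0.5). Nothing states that the mice came from separate litters, so p-values measure the spread between these mice. Alternatives were DESeq2 1.42.0, other scalings and filters, the replicate block, natural splines with 5 degrees of freedom on the GC content and length of each gene's longest transcript (GENCODE M21, on GRCm38, the assembly of mm10) as offsets, mice left out, and other thresholds.

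Named genes are the 10 genes, *Ube3a*, in each list of the same roles every called gene and the 2 with the smallest p in each direction, and in the marker lists every called gene and *Pdgfra*, *Cldn5*, *Cx3cr1*, *Ttr*, *Prox1* and *Dlx1*. *Cerkl*, *Gm26735*, *Rcbtb2*, *Lpar6* and *Snhg14* are named for overlaps, and *Slc1a2*, *Gad1*, *Gad2* and *Dlx6* for their weight in a marker sum or its direction. The gene H2afz was matched as *H2az1*. The members and lists were chosen with earlier results of these data known.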

Additional observations from a re-analysis of the deposited data

How the results depend on the processing

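Over all genes, where 290 were called, the number was 1176 without a filter on low counts, 934 with DESeq2, 77 after correcting for GC content and length, 2832 at an unadjusted p and 4138 without both mice numbered 1. With 1 mouse left out it ran from 0 to 2582. For the 10 genes, where 0 were called, it was 3 without the filter (*Sox11*, *Neurod1* and *Dcx*), 1 with DESeq2 (*Sox11*), 5 at an unadjusted p, 5 without both mice numbered 1, and 0 to 4 with 1 mouse left out. Of the stem and progenitor genes, where 2 were called, the number was 1 with upper-quartile factors, library size only or the correction, 4 without the filter, with DESeq2 or at an unadjusted p, 6 without both mice numbered 1, and 0 to 5 with 1 mouse left out. Of the genes of immature neurons, where 1 was called, it was 2 with DESeq2 size factors, library size only or at least 10 counts in every sample, 6 without the filter, 5 with DESeq2, 9 at an unadjusted p, 16 without both mice numbered 1, and 0 to 9 with 1 mouse left out. Of the cell cycle genes, where 0 were called, it was 1 without the filter, 4 at an unadjusted p, 3 without both mice numbered 1, and 0 to 2 with 1 mouse left out. Of the Rb and E2F genes, where 0 were called, it was 1 without the filter or with DESeq2, 2 at an unadjusted p, 5 without both mice numbered 1, and 0 to 3 with 1 mouse left out.

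*Sox11*, *Neurod1*, *Dcx*, *Rb1*, *Nes*, *Eomes* and *Top2a* kept their direction in each of these fits that tested them. The 95% interval of *Nes* spanned 0 without WT mouse 3 (-0.06 to 0.67) and without Ube3a m-/p+ mouse 2 (-0.04 to 0.84). That of *Rb1* spanned 0 when any 1 of the mice numbered 2 or 3 was left out. *Sox4* turned to 0.01 with upper-quartile factors and without the filter and to 0.00 without both mice numbered 1, and it ran from -0.05 to 0.03 with 1 mouse left out. *Igfbpl1* turned to -0.13 with the correction and ran from -0.24 to 0.18 with 1 mouse left out. *Mki67* ran from -0.33 to 0.03 with 1 mouse left out. Apart from the changes that follow from fewer genes or mice, the cause was not tested. Low counts limit *Eomes*, *Mki67* and *Top2a*.

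The replicate numbers of the labels were not shown to pair the mice, since the deviations of same-numbered mice from their genotype means had correlations of -0.285, -0.177 and -0.31 across genes. With the replicate block 0 genes were called in all (2422 at an unadjusted p below 0.05) and 0 of the 10 genes (5 at an unadjusted p below 0.05), as in each of the 4 lists, and *Igfbpl1* was at -0.01. With the replicate block and the correction together, 2 genes were called in all, 0 of the 10 genes and 0 in the 4 lists, and *Igfbpl1* was at -0.16.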
